A study of Saccharomyces cerevisiae with 64 samples.

Results

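In kfc1 yeast driven into meiosis by overexpressed IME1, the step from 8 h to 12 h was examined gene by gene. The difference between the log2 ratios of a gene, 12 h minus 8 h, was taken for all genes of the authors' table. It could be formed for 6509 of 6660 genes and rests on 4 of the 64 samples of the series. Both groups were Saccharomyces cerevisiae S288c under sporulation conditions, with genotype kfc1 -- and IME1 carried on the construct labelled PzevIME1. Both times therefore share the deletion, the construct and the medium, and as labelled they differ in time. Each group was 2 replicates of polyadenylated RNA. The table gives 1 value per group, with the replicates already combined, so no value below has an error and none has a test. Each value is a ratio to wild type without overexpression at 0 h, a reference that drops out of the difference. The same step in wild type with IME1 is given beside it. That strain is labelled wild type, with the same background and overexpression. The titles of its samples mark them as re-used and those of kfc1 do not, so genotype and this difference in origin cannot be told apart.

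The rule for a higher or lower gene was a log2 difference of at least 1, which is a 2-fold change. By that rule 282 genes were higher at 12 h (4.33% of those measured) and 311 were lower (4.78%). These percentages are the background for every count of members given below for kfc1. In wild type over the same step 199 genes were higher (3.06%) and 67 lower (1.03%). The 3 steps from 2 to 8 h in kfc1 with IME1, each shorter than the 8 to 12 h step, held fewer. The step from 0 to 2 h was not counted. Of the 3 steps, that from 2 to 4 h had 114 genes past the threshold (1.75%). Those from 4 to 6 h and from 6 to 8 h had 18 each (0.277%). The last of these shares its 8 h samples with the step described here. Without overexpression, 24 genes passed it in kfc1 from 8 to 12 h (0.369%), and in wild type with IME1 24 passed it from 6 to 8 h (0.369%). The SD over genes was 0.606 for the 8 to 12 h step and 0.232 for the 6 to 8 h step; the latter is a spread between genes and times, not a replicate error.

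Budding yeast enters meiosis when starvation induces Ime1, which works with the DNA-binding protein Ume6 to switch on early genes for DNA replication, recombination and synapsis. The transcription factor Ndt80 then switches on the middle genes, which run the nuclear divisions, the prospore membrane and the spore wall. Ndt80 binds the middle sporulation element, and the repressor Sum1 occupies related sites until then. The methyltransferase complex that puts m6A on messenger RNA is active in early meiosis, and Ime4 is its catalytic subunit. The deleted gene of kfc1 is read here, from published work, as VIR1 (systematic name YGL036W), another subunit gene of the complex. VIR1 stood at -7.70 at 8 h and -7.04 at 12 h in kfc1, and at 1.15 and 1.67 in wild type with IME1. URA3 stood in kfc1 at 7.11 and 8.25, and LEU2 had no value there but stood at 7.43 and 7.30 in wild type. In wild type with IME1 URA3 stood at 7.12 and 7.50. RNA came from whole cultures, where fewer cells of a kind and less RNA per cell cannot be told apart.

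The promoters of 7 genes are shown, as 5′ to 3′ windows ending 51 bases before the coding start, to show the motifs whose shares are counted below. RRT5 and LDS1 rose in kfc1, CDA2 and LDS2 rose in wild type and did not pass the threshold in kfc1, and NDT80 encodes the factor that binds the element. In these 5, capitals mark CACAAA, the core of the middle sporulation element, or its complement TTTGTG.
RRT5, chrVI:223010-223259, minus strand: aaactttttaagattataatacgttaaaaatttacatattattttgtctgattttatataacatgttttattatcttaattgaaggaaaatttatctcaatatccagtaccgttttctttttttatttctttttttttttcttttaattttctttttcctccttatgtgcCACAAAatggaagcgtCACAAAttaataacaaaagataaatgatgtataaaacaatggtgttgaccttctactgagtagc
LDS1, chrI:119592-119841, minus strand: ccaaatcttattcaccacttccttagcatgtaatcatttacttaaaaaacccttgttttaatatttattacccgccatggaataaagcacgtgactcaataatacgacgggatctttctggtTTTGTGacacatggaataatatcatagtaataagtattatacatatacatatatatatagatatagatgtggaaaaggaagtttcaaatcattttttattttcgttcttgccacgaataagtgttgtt
CDA2, chrXII:747637-747886, plus strand: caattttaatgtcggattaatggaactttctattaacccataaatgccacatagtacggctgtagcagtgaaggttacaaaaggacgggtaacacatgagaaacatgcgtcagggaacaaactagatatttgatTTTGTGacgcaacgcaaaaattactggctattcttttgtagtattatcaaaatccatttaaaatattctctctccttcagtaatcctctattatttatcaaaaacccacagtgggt
LDS2, chrXV:242798-243047, minus strand: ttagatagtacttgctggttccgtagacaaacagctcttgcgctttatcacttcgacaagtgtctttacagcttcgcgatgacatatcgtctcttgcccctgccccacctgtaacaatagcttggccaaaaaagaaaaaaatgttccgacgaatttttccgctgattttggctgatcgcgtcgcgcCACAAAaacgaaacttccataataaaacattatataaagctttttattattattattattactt
NDT80, chrVIII:356261-356510, plus strand: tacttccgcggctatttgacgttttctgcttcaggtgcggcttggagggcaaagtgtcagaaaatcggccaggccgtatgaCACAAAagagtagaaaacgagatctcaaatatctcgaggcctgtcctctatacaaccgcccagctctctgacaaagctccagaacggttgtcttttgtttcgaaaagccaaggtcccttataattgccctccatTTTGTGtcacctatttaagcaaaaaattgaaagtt
ARG1 and HIS4 are amino acid genes that were among the lowest at 12 h. Capitals there mark TGACTC, the core of the site of the amino acid regulator Gcn4, or its complement GAGTCA.
ARG1, chrXV:218911-219160, plus strand: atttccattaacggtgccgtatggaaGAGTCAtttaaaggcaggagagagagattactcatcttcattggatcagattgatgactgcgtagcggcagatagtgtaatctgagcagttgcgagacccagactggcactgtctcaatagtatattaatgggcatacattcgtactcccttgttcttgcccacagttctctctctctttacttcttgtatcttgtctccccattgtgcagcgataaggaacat
HIS4, chrIII:68384-68633, minus strand: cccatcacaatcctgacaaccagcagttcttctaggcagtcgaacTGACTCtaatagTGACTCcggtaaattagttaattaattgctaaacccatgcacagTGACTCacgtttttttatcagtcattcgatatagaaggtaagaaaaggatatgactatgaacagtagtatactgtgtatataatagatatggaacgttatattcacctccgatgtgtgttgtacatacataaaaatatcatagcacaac
All windows are from the RefSeq R64 genome, the assembly behind sacCer3. A match to these letters is a description of the window and not a measured binding site.

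Most regulators of meiotic entry and commitment stayed under the threshold in kfc1. Of 18 genes on that list 1 was higher, none was lower, and the median difference was 0.30, against -0.01 over all genes measured. IME1 itself stood at 3.44 at 8 h and 3.72 at 12 h, so the overexpressed regulator was still high. IME2, the kinase gene that Ime1 induces, went from 4.68 to 4.97. NDT80 stayed at 0.27 and 0.32, a difference of 0.05, whereas in wild type it went from 0.49 to 2.12, a difference of 1.63. The NDT80 levels of the genotypes lay close together at 8 h and apart at 12 h. PES4 and MIP6, related genes for RNA-binding proteins of meiosis, differed by 0.74 and 0.86 in kfc1 and by 2.92 and 3.03 in wild type. RIM4, whose RNA-binding product represses translation in meiosis, differed by -0.29 in kfc1 and 0.58 in wild type. RME1, which encodes a repressor of IME1, differed by 0.60 in kfc1 and SUM1 by -0.02. The gene past the threshold was RIM15, a kinase gene of the starvation response, at -0.16 and 1.87, a difference of 2.03 (0.41 in wild type). Its difference was 1.43 relative to genes of like coding length, a measure explained below.

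Of 7 genes for m6A methylation and its reader none passed the threshold, with a median of 0.39 in kfc1 and 0.58 in wild type. The 7 include VIR1 itself, whose difference of 0.66 in kfc1 is that between -7.70 and -7.04. IME4 differed by 0.39 in kfc1, and the complex genes MUM2, SLZ1 and KAR4 by 0.37, 0.58 and 0.31. PHO92, the gene of the m6A reader, differed by 0.65 and stood at 5.88 at 12 h. In wild type these 5 differences ran from 0.49 (KAR4) to 0.99 (SLZ1).

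Early meiotic genes lay mostly above 0 in kfc1, with few past 2-fold. Of 29 genes for double-strand breaks and strand exchange 26 lay above 0 and 2 were higher by the rule, with a median of 0.41 (0.62 in wild type, where 8 were higher). These were SPO11 (2.41 to 3.73), whose product makes the meiotic break, and MEI5 (6.89 to 8.35), which encodes a loading factor for the Dmc1 recombinase. Both also passed the threshold in wild type, with differences of 1.59 and 1.87. Relative to genes of like coding length 4 of the 29 were higher in kfc1 and 7 in wild type, with medians of 0.54 and 0.66. The list of 34 chromosome axis, synaptonemal complex and checkpoint genes had 3 higher, none lower and a median of 0.64, against 15 higher and 0.96 in wild type. The largest were GMC2 (4.33 to 6.31) and ECM11 (4.84 to 6.40), which encode partner proteins of the synaptonemal complex central element. MAM1, a subunit gene of the monopolin complex that joins sister kinetochores, went from 0.74 to 2.30. At 12 h the median of that list was 2.22 in kfc1 and 2.63 in wild type. No member of either list was lower by at least 1 in either genotype.

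**Figure D1:**
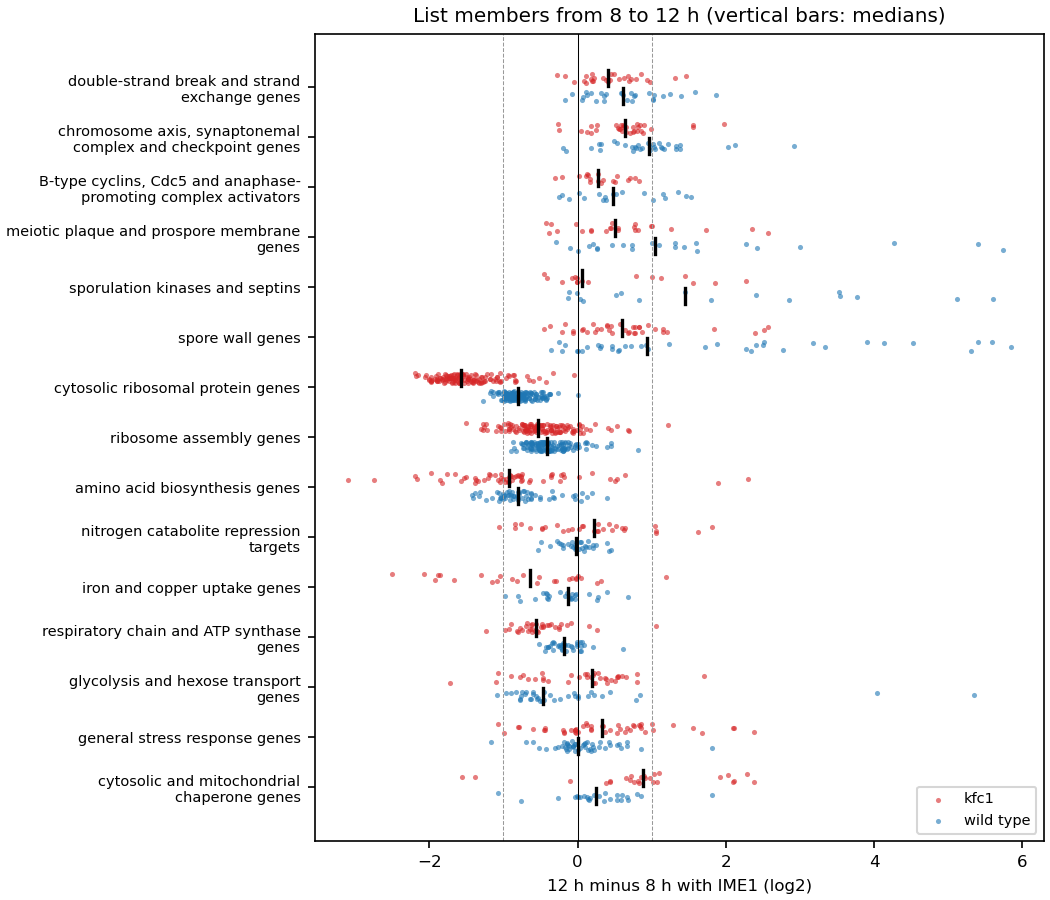
Log2 difference from 8 to 12 h (horizontal axis) of the members of 15 gene lists, 1 point a gene, red for kfc1 and blue for wild type with IME1, with black bars at the medians and dashed lines at -1 and 1. Ribosomal protein genes lie near -1.57 in kfc1, and the sporulation kinase and septin genes near 0.06 against 1.45 in wild type.

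Genes of the middle programme split in kfc1. Of 24 meiotic plaque and prospore membrane genes 4 were higher, with a median of 0.51 (12 higher and 1.05 in wild type). PFS1, needed for prospore membrane formation, went from 0.59 to 3.16, SPO19 from -0.10 to 1.63, and SPO74, a meiotic plaque component, from -0.54 to 0.72. These 3 differences of 2.57, 1.73 and 1.27 stood beside 5.41, 5.74 and 4.27 in wild type. The other was VPS13, a lipid transfer gene with a long coding sequence, at 2.35 in kfc1 and 0.21 in wild type. SPO20 and SSP1, which act in membrane fusion and at the leading edge of the prospore membrane, differed by 0.77 and 0.47 in kfc1 and by 2.42 and 2.27 in wild type.

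Of 17 sporulation kinase and septin genes 6 were higher in kfc1, although the median was 0.06; in wild type 9 were higher and the median was 1.45. The sporulation septin genes SPR3 and SPR28 differed by 1.01 and 1.85 in kfc1 and by 3.77 and 3.52 in wild type. SSP2, whose product activates the kinase Smk1, went from 0.49 to 1.62. RCK1, a kinase gene, rose in both genotypes, by 2.28 in kfc1 and 2.40 in wild type. SPS1, the kinase gene of spore wall assembly, differed by 0.79 in kfc1 and 5.12 in wild type. GIP1, which encodes a regulatory subunit of protein phosphatase 1, stood at -0.51 at both times in kfc1 and rose by 1.81 in wild type.

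Of 38 spore wall genes 8 were higher in kfc1 and none lower, with a median of 0.60 (18 higher and 0.94 in wild type). LDS1, of the lipid droplets that accompany spore wall growth, went from 1.97 to 4.48 in kfc1 and from 3.32 to 9.16 in wild type. OSW1, of the outer spore wall, went from 0.89 to 3.28. The chitin deacetylase genes CDA1 and CDA2 differed by 1.04 and 0.46 in kfc1 and by 2.78 and 5.31 in wild type. DTR1, the dityrosine transporter gene, differed by 0.24 in kfc1 and 3.34 in wild type. SPS100, which acts late in spore wall maturation, went from -4.65 to -2.81 in kfc1, with a difference of -0.20 in wild type. Its level at 12 h was still the lowest of the spore wall genes named here. PFS1 and SSP1 also stand on the preceding membrane list. Of 19 genes for B-type cyclins, Cdc5 and anaphase-promoting complex activators none passed the threshold in kfc1, while 6 were higher in wild type. CDC5, the polo kinase gene of meiotic exit from pachytene, differed by 0.13 in kfc1 and 1.53 in wild type, and CLB1 by 0.50 and 1.15.

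The 22 genes that were higher in wild type by at least 4 log2 units were picked on the wild-type values alone, so their wild-type differences are a description. Their median difference was 5.32 in wild type and 1.67 in kfc1. Each of the 22 was smaller in kfc1, which the choice all but fixed, because the highest difference of any gene in kfc1 was 4.17. Even so, 15 of them passed the threshold in kfc1. RRT5 went from 1.30 to 3.87 in kfc1 and from 2.11 to 8.84 in wild type. SPR2 went from -0.28 to 1.77 in kfc1 and from -0.01 to 6.90 in wild type. Those that did not pass it in kfc1 were CWP1 (0.83), HXT14 (0.80), SPS1 (0.79), LDS2 (0.69), CDA2 (0.46), SPS2 (0.40) and BIL2 (0.03).

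**Figure D2:**
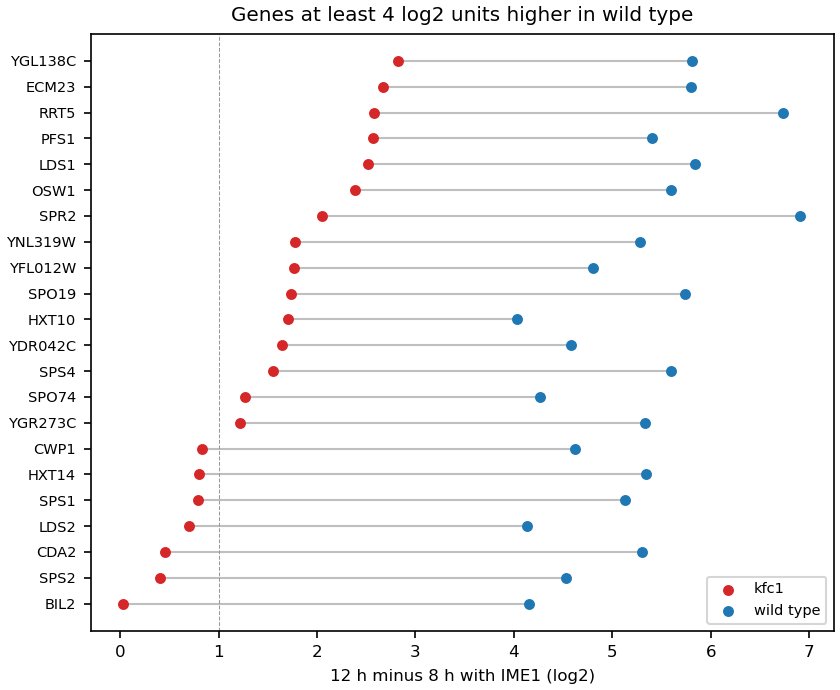
Log2 difference from 8 to 12 h (horizontal axis) of the 22 genes that were higher by at least 4 in wild type with IME1 (blue), each joined to its value in kfc1 (red). The kfc1 values run from 0.03 for BIL2 to 2.83 for YGL138C. Each lies to the left of its wild-type value, which the choice on wild-type values all but fixed.

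The middle sporulation element core CACAAA, searched on both strands in 250-base windows, was in 14.7% of 5888 promoters (865). It was in 24.1% of the promoters of genes higher in kfc1 (59 of 245) and in 54.3% of those higher in wild type (95 of 175). Of the genes higher in both genotypes 47% held it (31 of 66), and of those higher in kfc1 but not in wild type 15.7% (28 of 178), which is near the share of all promoters. Genes higher in wild type but not in kfc1 held it in 59.3% (64 of 108). The longer form GNCACAAA, which contains the core and was added after values had been seen, was in 3.53% of all promoters, 31.8% of those higher in both, 36.1% of those higher in wild type alone and 5.06% of those higher in kfc1 alone. The first CACAAA of the NDT80 window printed above begins 219 bases before the coding start and the second 85 bases before. RRT5 has one at 130 and one at 114 bases, LDS1 one at 178, CDA2 one at 166 and LDS2 one at 114. GGCGGC, the core of the Ume6 site, was in 4.89% of all promoters, 7.35% of those higher in kfc1 and 7.89% of those lower. It was in 16.6% of those higher in wild type, and in 20.4% of those higher in wild type but not in kfc1.

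The change in kfc1 was not even over genes of different coding length, and this touches several results. Genes up to 600 bases had a median difference of -0.14, genes of 2000 to 3000 bases 0.11, genes of 4000 to 6000 bases 0.48 and the 37 genes over 6000 bases 1.30. Of the 37, 26 were higher in kfc1 (70.3%) and none lower, against 0 higher in wild type, where their median was 0.11. Across genes the rank correlation of difference with length from 8 to 12 h was 0.241 in kfc1 and -0.069 in wild type. In kfc1 with IME1 it was 0.332 from 4 to 6 h and -0.153 from 6 to 8 h. In wild type with IME1 it was 0.345 from 6 to 8 h, so a rank correlation of this size was not particular to this step. These values are descriptions across genes, which are not independent. The median level of the 37 was -0.26 at 8 h and 1.20 at 12 h in kfc1. It was 0.93 in kfc1 with IME1 and RIM4 at 12 h, and between -0.50 and 0.31 in the other groups of the IME1 and the IME1 with RIM4 arms. Among them were URA2 (2.61), TRA1 (2.52), VPS13 (2.35), NUM1 (2.20), IRA2 (2.16) and PRP8 (2.15), which have varied roles. FAS1, REA1 and ACC1 are as long but stood at -0.11, -0.03 and -0.57. RNA integrity and coverage along genes are not in the table, and the part of coding length in any single result was not tested. For lists and genes whose calls it changes most, the difference is therefore also given relative to genes of like coding length. This scale subtracts the running median of up to 301 genes nearest in length. At the ends of the length range the window holds fewer genes. For the genes over 6000 bases, URA2 and GLT1 among them, the window is made up mostly of shorter genes. The scale therefore takes off less than their own median of 1.30. On that scale, which was added after values had been seen, 225 genes were higher and 264 lower, against 245 and 279 as measured among the same genes. No list median moved by more than 0.176 on it.

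**Figure D3:**
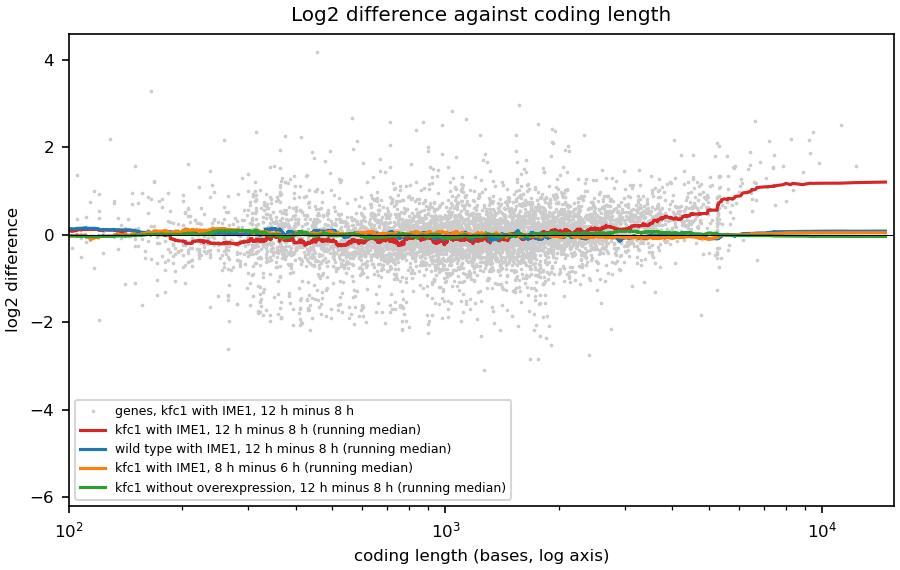
Log2 difference (vertical axis) against coding length on a log axis, with grey points for genes in kfc1 with IME1 from 8 to 12 h and lines for running medians in 4 comparisons. The line of that step climbs above 1 beyond 6000 bases, whereas the lines for wild type, for 6 to 8 h and for kfc1 without overexpression stay near 0.

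Ribosomal protein genes made up 122 of the 311 decreases. Of 137 cytosolic ribosomal protein genes on the list none was higher, and the median was -1.57. Every member lay below 0. The median level fell from -0.97 at 8 h to -2.55 at 12 h. In wild type 12 were lower and the median was -0.81, so the direction was the same and the median smaller. RPS1B went from -1.39 to -3.57, RPS23B from -1.55 to -3.72 and RPS22A from -0.85 to -2.90. Their wild-type differences were -1.18, -0.99 and -0.93. Many of these genes are near-identical pairs whose reads the authors' counting could have split, so single members are less certain than the list. They are short genes, and relative to genes of like coding length 113 were lower and the median was -1.43. Ribosome assembly genes leaned the same way by less, with 12 of 133 lower, 1 higher and a median of -0.53 (-0.42 in wild type, where none passed the threshold). NSR1 and NOP1, nucleolar genes of ribosomal RNA processing, differed by -1.51 and -1.28. RPA135, a subunit gene of RNA polymerase I, differed by -1.30, and RRN7, which encodes an initiation factor of the same polymerase, was the one higher at 1.22. Relative to genes of like coding length 17 were lower. Of 69 mitochondrial ribosomal protein genes none passed the threshold, with a median of -0.29.

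Of 61 amino acid biosynthesis genes 26 were lower and 2 higher, with a median of -0.92 in kfc1 and -0.80 in wild type (15 lower). ARG1, argininosuccinate synthetase, had the lowest difference of the genes named, from 4.97 to 1.88. In wild type ARG1 stood at 5.83 and 5.01, so that its levels in the genotypes came apart at 12 h. HIS4, of histidine synthesis, went from 1.06 to -1.69 in kfc1 and from 1.88 to 0.46 in wild type. ARG4 and ASN1, of arginine and asparagine synthesis, differed by -2.19 and -2.17 in kfc1 and by -1.03 and -0.87 in wild type. The lysine synthesis genes LYS9 and LYS1, named after their values were seen, stood at 0.44 and -0.22 in kfc1 and at -1.39 and -1.41 in wild type. LEU1, isopropylmalate isomerase, went from 3.35 to 5.64 in kfc1 and differed by 0.20 in wild type. GLT1, the glutamate synthase gene, was the other one higher at 1.90, or 1.26 relative to genes of like coding length. On that scale 23 of the list were lower and its median was -0.86.

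TGACTC was in 6.95% of all promoters and in 65.6% of those of the amino acid genes (40 of 61). It was in 20 of the 26 that were lower in kfc1 (76.9%). Among all genes lower in kfc1 with ribosomal protein genes left out, 31.8% held it (50 of 157). Ribosomal protein promoters held it in 1.46%. The ARG1 window printed above holds 1 match, 274 bases before the coding start, and the HIS4 window holds 3, the farthest at 255 bases. GATGAG, the core of the PAC element known from ribosome assembly genes, was in 17.4% of all promoters and 30.6% of the lowered ones without ribosomal protein genes. AAAATTT, the core of the RRPE element of the same genes, was in 22.5% of all promoters and 31.2% of that set.

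**Figure D4:**
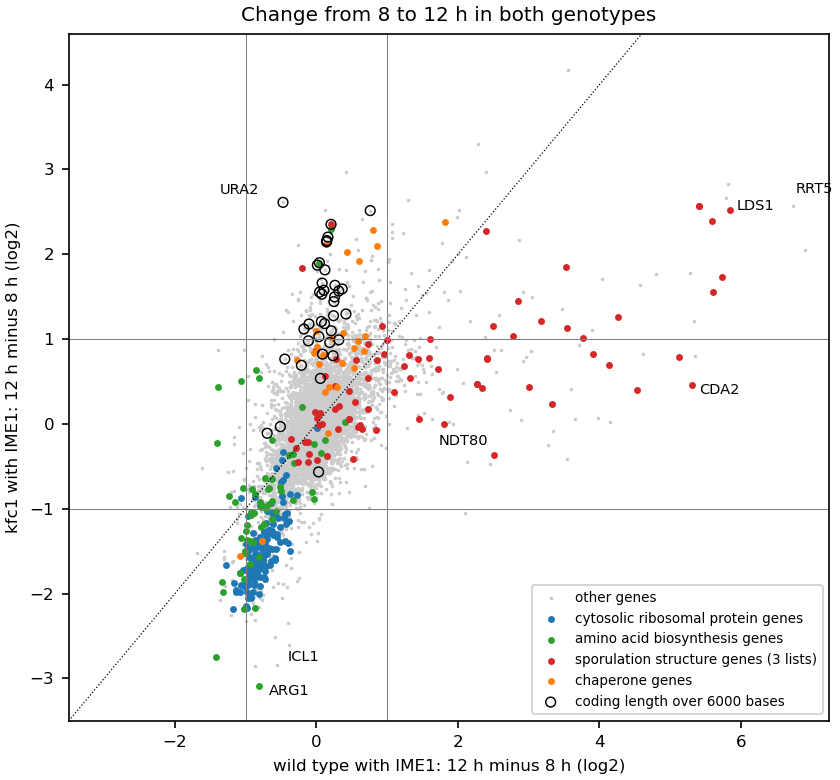
Log2 difference from 8 to 12 h in kfc1 (vertical axis) against wild type with IME1 (horizontal axis), 1 point a gene, with grey lines at -1 and 1, a dotted line of equality, and colours for gene lists. Sporulation structure genes spread to the right below the dotted line, ribosomal protein genes lie lower left below it, and genes over 6000 bases (open circles) lie above it near 0 on the horizontal axis.

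Of 26 iron and copper uptake genes 10 were lower, 1 was higher and the median was -0.64, whereas in wild type none passed the threshold and the median was -0.13. FET3 and FTR1, the ferroxidase and permease of high-affinity iron uptake, differed by -2.51 and -1.92 in kfc1 and by -0.58 and -0.41 in wild type. The siderophore transporter genes ARN1, ENB1 and ARN2 differed by -2.08, -1.89 and -1.86. CTR1, a copper transporter gene, differed by -1.30, and CTR3, another copper transporter gene, by 1.19. Relative to genes of like coding length the count stayed at 10 lower and 1 higher. Among single transporter genes of the 12 lowest, PHO84, the high-affinity phosphate transporter, went from -0.79 to -3.64, and VHT1, the biotin transporter, from 0.50 to -1.81. The polyamine exporter genes moved apart in kfc1, TPO1 from 0.30 to 2.83 and TPO2 from 2.58 to 0.23. Their wild-type differences were 0.13 and -0.40.

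IMD2, the inducible IMP dehydrogenase of GTP synthesis, was the highest in kfc1 by the rule for named genes, which asks for a gene symbol. It went from 2.56 to 5.53, a difference of 2.97 against 0.42 in wild type. In wild type with IME1 it had already gone from 2.61 at 6 h to 4.13 at 8 h, and it stood at 4.55 at 12 h. It has near-identical copies, and the related YAR073W differed by 2.97 as well, so reads may have been shared. Its paralog IMD3 went the other way, from -0.03 to -1.22. URA2, of the first steps of pyrimidine synthesis, went from -0.39 to 2.22 in kfc1 and differed by -0.47 in wild type; it is 6645 bases long, and its value relative to genes of like length was 1.96. On the list of 40 purine, pyrimidine and thiamine synthesis genes 2 were higher, 6 lower and the median was -0.25. Lower were the purine genes ADE17 (-1.56) and ADE1 (-1.44), the CTP synthase gene URA7 (-1.27) and the vitamin B6 gene SNZ1 (-1.16). Relative to genes of like coding length 8 of the list were lower. The 27 sulfate assimilation and methionine genes held 2 lower and none higher, with medians of -0.18 in kfc1 and -0.50 in wild type. They were STR3 (-1.12) and the sulfate permease gene SUL1 (-1.02).

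Chaperone genes lay mostly above 0 in kfc1. The list of 26 cytosolic and mitochondrial chaperone genes, drawn up after values had been seen, had 10 higher, 2 lower and a median of 0.88, against 1 higher, 1 lower and 0.26 in wild type. The Hsp90 genes HSC82 and HSP82 went from 0.78 to 2.81 and from 0.60 to 2.52. The Hsp70 genes SSA2, SSA3 and SSA4 differed by 2.12, 2.38 and 2.10 in kfc1 and by 0.14, 1.82 and 0.85 in wild type. These Hsp90 and Hsp70 genes have close paralogs that could share reads. BTN2, a protein sorting factor for misfolded proteins, went from 0.93 to 3.22. The ribosome-bound Hsp70 genes SSB1 and SSB2 differed by -1.55 and -1.38. Relative to genes of like coding length 11 were higher and 2 lower. The wider list of 49 general stress response genes, which shares SSA genes with it, had 7 higher, 1 lower and a median of 0.33 (1 higher, 1 lower and 0.01 in wild type). Beside the SSA genes it held CTA1, the peroxisomal catalase gene, from 1.37 to 3.05, and HSP31 from -2.42 to -0.86. HSP30, a plasma membrane heat shock gene, was the one lower, at -1.07, and at -0.95 relative to genes of like coding length it no longer passed the threshold. AGGGG, the core of the site of the stress factors Msn2 and Msn4, was in 19.4% of all promoters, 18% of those higher in kfc1 and 30.8% of those of the chaperone list (8 of 26). GGCGGC, the Ume6 core, was in 23.1% of those of the chaperone list (6 of 26), against 4.89% of all promoters.

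**Figure D5:**
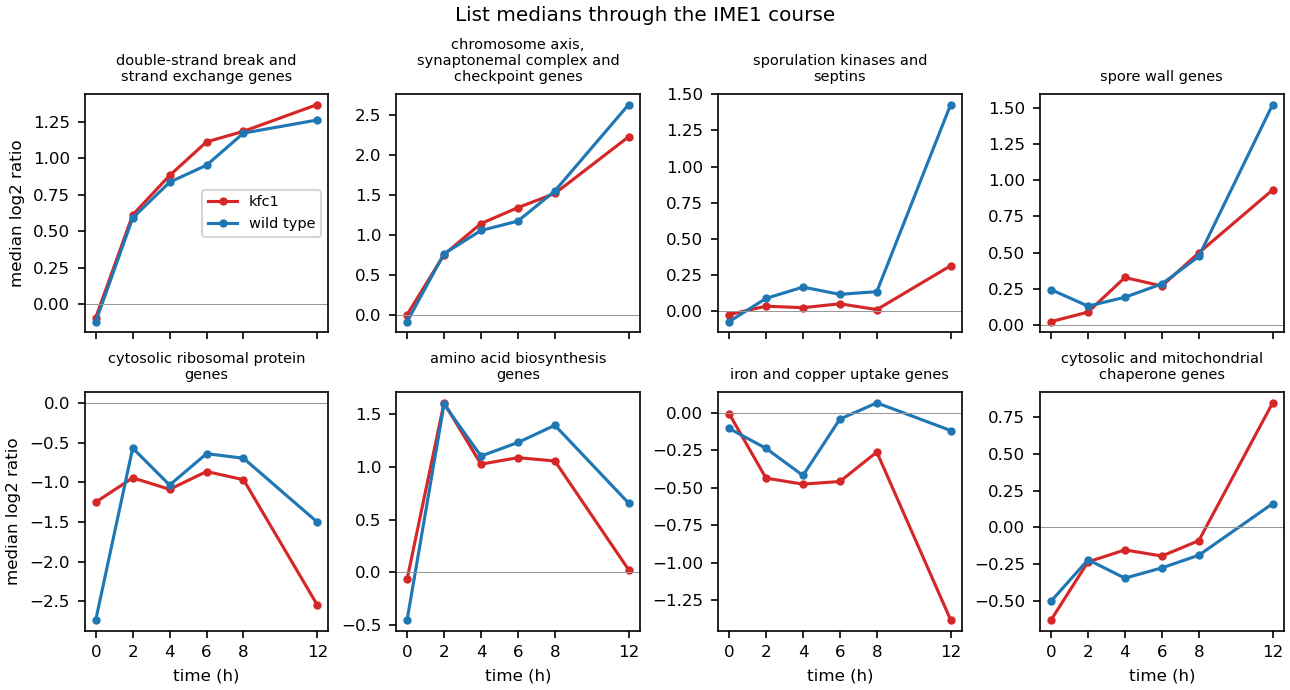
Median log2 ratio to wild type without overexpression at 0 h (vertical axis) of 8 gene lists over 0 to 12 h (horizontal axis), red for kfc1 and blue for wild type with IME1. At 12 h the medians of the genotypes lie farther apart than at 8 h, with the chaperone median at 0.85 in kfc1 and 0.16 in wild type and the iron and copper median at -1.38 and -0.12.

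Carbon and nitrogen lists differed in their share of calls. Of 31 measured nitrogen catabolite repression targets 5 were higher (16.1%, against 4.33% of all genes) and 1 lower (3.23%, against 4.78%). Their median was 0.22, and none passed the threshold in wild type. Higher were DAL80 (3.84 to 5.46), which encodes a GATA repressor, and DAL4 (1.23 to 3.04), the allantoin permease gene. The arginase gene CAR1 was lower, from 3.16 to 2.10, but its difference of -1.06 was -0.94 relative to genes of like coding length. CAR1 differed by -1.07 over the same hours in kfc1 without overexpression and by 0.06 in wild type with IME1. Of 45 genes for the mitochondrial TCA cycle and acetate use 6 were higher (13.3%), 3 lower (6.67%) and the median was -0.07. ICL1, isocitrate lyase of the glyoxylate cycle, went from -0.81 to -3.66, and the gluconeogenesis gene PCK1 differed by -1.19. The activator genes ADR1 and CAT8 differed by 1.18 and 1.16, and by 0.82 and 0.74 relative to genes of like coding length, where they no longer passed the threshold. Of 36 respiratory chain and ATP synthase genes 1 was higher, 1 lower and the median was -0.56 (-0.19 in wild type). These were COX5B (1.05) and CYC1 (-1.24), which encode a subunit of cytochrome c oxidase and cytochrome c itself. Of 38 glycolysis and hexose transport genes 1 was higher, 3 lower, and the kfc1 median was 0.19 (-0.47 in wild type). HXK2, hexokinase, went from 0.54 to -1.18, and HXT10, a hexose transporter gene, from 1.78 to 3.49. In wild type HXT10 went from 1.70 to 5.74. The 23 trehalose and glycogen genes held 1 higher, the sporulation glucoamylase gene SGA1 (1.15, and 2.50 in wild type), and none lower. Of 48 autophagy and vacuolar protease genes 1 was higher and 1 lower. ATG41 went from 1.82 to -0.23, and ATG2 differed by 1.17, or 0.66 relative to genes of like coding length. None of 33 proteasome genes passed the threshold in either genotype. In kfc1 28 lay below 0, with a median of -0.13, while in wild type all 33 lay above 0, with a median of 0.27.

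Of 34 kinetochore genes 3 were higher and none lower, with a median of 0.20. NDC80, an outer kinetochore gene, went from 1.25 to 3.18 in kfc1 and from 1.35 to 2.12 in wild type. Its RNA already stood above the reference at 2 h, at 0.86 in kfc1 and 0.82 in wild type. SPC24, of the same Ndc80 complex, went from 1.15 to 2.47. SLI15, of the Aurora kinase complex, differed by 1.03, and by 0.96 relative to genes of like coding length. Among 48 DNA replication and histone genes 5 were higher and none lower. The histone genes HTB2, HHF2, HTA2 and HHF1 differed by 1.35, 1.21, 1.11 and 1.00, and the ribonucleotide reductase gene RNR3 by 1.49. The wild-type differences of these 5 ran from 0.70 to 0.85. From 6 to 8 h 7 of the 48 were already higher in kfc1, among them HTA2 (2.26), HHF2 (1.51) and HTB2 (1.22). At 12 h HTB2, HHF2 and HTA2 stood at 1.91, 1.09 and 1.33 in kfc1. In wild type they stood higher, at 2.25, 1.40 and 1.65. Of 34 mitotic G1/S and daughter separation genes 3 were lower and none higher. CLN3, the G1 cyclin gene, went from -0.46 to -2.52, the glucanase gene EXG1 from -0.70 to -2.71, and PRY3 differed by -1.05. Of 29 vegetative cell wall genes 6 were lower and 2 higher, with medians of -0.47 in both genotypes. HSP150, a covalently bound wall protein gene, went from -0.25 to -2.57 and PST1 from -0.66 to -2.39, whereas DAN1, an anaerobic mannoprotein gene, rose by 1.92 in both genotypes. Of 23 haploid-specific and mating genes 2 were higher, MFA2 (1.01) and MF(ALPHA)1 (1.03), both mating pheromone genes. On the list of construct and marker genes 6 of 7 had values. Of these URA3 was higher (1.14) and HIS3, also on the amino acid list, was lower (-1.57).

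The steps in kfc1 and wild type were related but unequal. Over 6502 genes the Pearson correlation of the differences was 0.584 and Spearman's rho 0.597, which describes genes and carries no p. Of 281 genes higher in kfc1 that had a wild-type value 75 were higher in wild type (26.7%), which is 38.1% of the 197 higher there that had a kfc1 value. Of 311 lower in kfc1 40 were lower in wild type (12.9%), which is 59.7% of the 67 lower there. The direction was shared more widely than the size. Among genes lower in kfc1 305 of 311 lay below 0 in wild type, with a median of -0.78. Among genes higher in kfc1 239 of 281 lay above 0, with a median of 0.47. YNL018C was the one gene past the threshold in opposite directions, at -1.05 in kfc1 and 2.10 in wild type. The change in kfc1 exceeded that in wild type by at least 1 for 176 genes (2.71%) and fell short of it by at least 1 for 159 (2.45%). The highest differences of changes were those of URA2, IMD2, TPO1, VPS13, LEU1 and SPS100, and the lowest those of SPR2, CDA2, HXT14, SPS1, RRT5 and SPS2. The last 6 had wild-type differences from 4.53 (SPS2) to 6.91 (SPR2) and kfc1 differences from 0.40 (SPS2) to 2.57 (RRT5).

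The other genes among the 12 highest and 12 lowest in kfc1 had varied roles. FDH1, formate dehydrogenase, went from 1.07 to 3.71 and rose in wild type by 1.30. ECM23, of the GATA family, went from 0.84 to 3.50 and rose in wild type by 5.79. BDF2, a bromodomain gene, went from 0.80 to 3.21 and TRA1, the scaffold of 2 histone acetyltransferase complexes, from 0.40 to 2.91. Their wild-type differences were 0.65 and 0.76. Among the lowest, PRY1, a sterol-binding secreted protein gene, went from -0.90 to -3.16 and differed by -1.20 in wild type. DPA10 went from -0.47 to -3.08 and differed by -0.39 there.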

How the data were processed

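Polyadenylated RNA was sequenced by the authors. The deposited table holds 1 log2 ratio per gene and group, with the 2 replicates combined. The base, given in no header, was taken as 2. BWA, DESeq2 and sacCer3 appear in the submitters' processing notes without their roles, and how reads were counted and whether ratios were shrunken is not given in the sources used here. Depth per sample is unknown, so no interval, error or test is given. A test of the kfc1 step had been planned only in case values of each replicate were found. Differences, counts and medians were computed with pandas 2.3.3 (Python 3.11.15), and the counting rule was tested on simulated data. Of the identifiers 5986 were in the RefSeq annotation of R64 and 674 were not; coding length was had for 5890. Promoter windows ran from 300 to 51 bases before the coding start.

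The gene lists, the members and the genes named were chosen with earlier results of these data known. Named were the 12 highest and 12 lowest, up to 4 called members per list and direction, the 6 highest and 6 lowest differences of changes, all with a symbol, values at all 6 kfc1 times and no exact value shared with another gene, and a fixed set of regulators and markers. Further genes were named after their values were seen. Alternatives were 2 centrings, RefSeq genes only, genes with a shared value left out, the mean of 6 and 8 h as the start, a threshold of 1.5 and, added later, the difference relative to genes of like coding length.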

Additional observations from a re-analysis of the deposited data

How the results depend on the processing

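No paired analysis was possible because each column of the table holds the combined ratio of both replicates; leaving out a replicate could not be done either. The SD over genes of the 6 to 8 h step (0.232) stood in for a replicate spread in judging whether a value moved. The 180 recomputed list medians moved by at most 0.176, and no named gene past the threshold changed sign under the settings run. The balance of the difference of changes did turn: from 176 higher and 159 lower to 163 and 170 with columns centred on their median, and to 160 and 166 with the mean of 6 and 8 h as the start. At a threshold of 1.5, 99 genes were higher and 153 lower in kfc1, 104 and 2 in wild type, and 45 and 73 in the difference of changes, so that at this threshold kfc1 no longer had more higher genes than wild type. The same threshold left 2 genes in kfc1 without overexpression, 35 in kfc1 with IME1 from 2 to 4 h, 1 from 4 to 6 h, 6 from 6 to 8 h, and 6 in wild type from 6 to 8 h. The count from 4 to 6 h was 10 in RefSeq genes only and 9 relative to genes of like coding length. With the mean of 6 and 8 h as the start, 45 genes passed in kfc1 without overexpression. That start also moved 23 named genes, among them HTA2 (2.24), DAL80 (2.81) and HXT2 (-0.82, no longer past the threshold), and HXT14 passed it at 1.12. Like coding length moved 9. The cause of these shifts was not tested. Depth is unknown, so genes with few reads cannot be singled out except by shared exact values, which 36 genes had.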

Other observations

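Genes near chromosome ends were looked at after values had been seen. Of 213 genes within 20000 bases of an end 20 were higher in kfc1 from 8 to 12 h (9.39%) and 6 lower, with a median of 0.16; of 5670 genes farther away 224 were higher (3.95%) and 273 lower. In wild type with IME1 11 of the 213 were higher (5.16%). They included PAU genes of a subtelomeric family, whose near-identical copies can share reads: PAU3 differed by 2.25 in kfc1 and 1.23 in wild type, and PAU9 by 2.19 and 1.06. YFR057W, the highest of all genes in kfc1, went from 0.53 to 4.70 and rose by 3.56 in wild type. It had no value at 2, 4 and 6 h in kfc1 with IME1, nor at 0 and 2 h in wild type with IME1.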
